A study of Mus musculus with 6 samples.

Results

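The 9 genes described here encode transcription factors of the hair matrix and of the layers it gives rise to: Lef1, Msx1, Msx2, Dlx3, Foxn1, Gata3, Cux1, Prdm1 and Ovol1. They were taken as every probe set whose annotated gene symbol is one of these names, which gave 23 of the 45101 probe sets on the array and 9 of 18193 genes with a probe set of their own. Cux1 had 9 of the probe sets, Gata3 and Prdm1 had 1 each, and the other 6 genes had 2 each. In RefSeq on GRCm38.p6 the genes lie at chr3:131110297-131224357 (Lef1), chr5:37820491-37824585 (Msx1), chr13:53466881-53472780 (Msx2), chr11:95120117-95125296 (Dlx3), chr11:78357577-78386783 (Foxn1), chr2:9857078-9887953 (Gata3), chr5:136248135-136567590 (Cux1), chr10:44437174-44528558 (Prdm1) and chr19:5549137-5560575 (Ovol1). All 23 passed the filter that kept the brighter 60% of probe sets.

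Expression was measured on 6 one-colour oligonucleotide arrays with total RNA of mouse hair follicle bulbs at P9, when the first coat is growing. The emN1 bulbs (2 arrays) lay in skin areas deleted for Notch1 during embryonic life and lacked functional Notch1. The anN1 bulbs (2 arrays) came from skin where the deletion took place in anagen, the growth phase of the follicle, and functional Notch1 was still present. Wild-type bulbs (2 arrays) carried no deletion. Both anN1 and wild-type are controls. One emN1 and one anN1 array formed a first hybridisation set and the other 4 arrays a second one. The promoter that drove the deletion, the strain and the number of animals behind each array are not given here by any label. The sample titles call the arrays of a group biological replicates. P-values measure the spread between these arrays, and how many animals that spread covers is not known. With 2 arrays a group, the precision of any value is limited.

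The hair matrix is the pool of dividing epithelial cells at the base of the follicle. Its daughter cells move upward and form, from the centre outward, the medulla, cortex and cuticle of the hair shaft and the layers of the inner root sheath, which moulds the shaft. Wnt and BMP signals from the matrix and from the dermal papilla act on this choice through transcription factors. Lef1 is the DNA-binding partner of beta-catenin in cells that become cortex. Msx1, Msx2 and Dlx3 are homeobox factors of the matrix and shaft, and in mice Msx2 acts upstream of Foxn1, the forkhead factor whose loss causes the nude phenotype of short, broken hair. Gata3 and Cux1 are known for their roles in the inner root sheath. Prdm1 and Ovol1 are zinc finger repressors that limit proliferation as epithelial cells differentiate.

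None of the 9 genes passed the test between emN1 and the controls. The comparison used limma on log2 signals with array set as a term and Benjamini-Hochberg adjustment over 27022 probe sets, with a threshold of 0.05. By that rule 0 of the 23 probe sets were called, against 3.77% of all probe sets tested, and 0 of 9 genes, each represented by its brightest probe set, against 5.41% of all genes tested. At an unadjusted p under 0.05 there were 9 of the 23 probe sets, against 16.6% of all probe sets tested, and 3 of the 9 genes, against 20.7% of all genes. Most of these 9 probe sets were of Cux1 alone, in both directions, and the others were of Lef1, Msx1 and Ovol1. Probe sets of 1 gene are not independent, so the count over probe sets is not a count of factors. The median log2 difference over the 9 genes was 0.12, beside -0.02 over all genes tested. The unadjusted 95% intervals of the 9 brightest probe sets lay between -0.80 (lower bound for Lef1) and 0.73 (upper bound for Ovol1). In this fit each of them therefore excluded a 2-fold difference in either direction. Several other probe sets did not, among them the dim one of Msx2 (-1.68 to 1.03) and one of Cux1 (upper bound 1.70). Nor does this hold in every fit: without the array set term Dlx3 was at -0.25 with an SE of 0.51. In simulated data of the same size, the test recovered 22.2% of probe sets changed 2-fold, drawn from all those tested. Only 200 probe sets were changed there, fewer than the 1020 called in the data, and recovery after adjustment depends on that share. The SE of the 9 brightest probe sets lay between 0.09 (Cux1) and 0.20 (Msx1), beside a median of 0.235 over all probe sets tested. The simulated rate is therefore not that of these 9 genes. Smaller differences remain within the intervals, so a gene that missed the threshold is not shown to be unchanged.

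**Figure D1:**
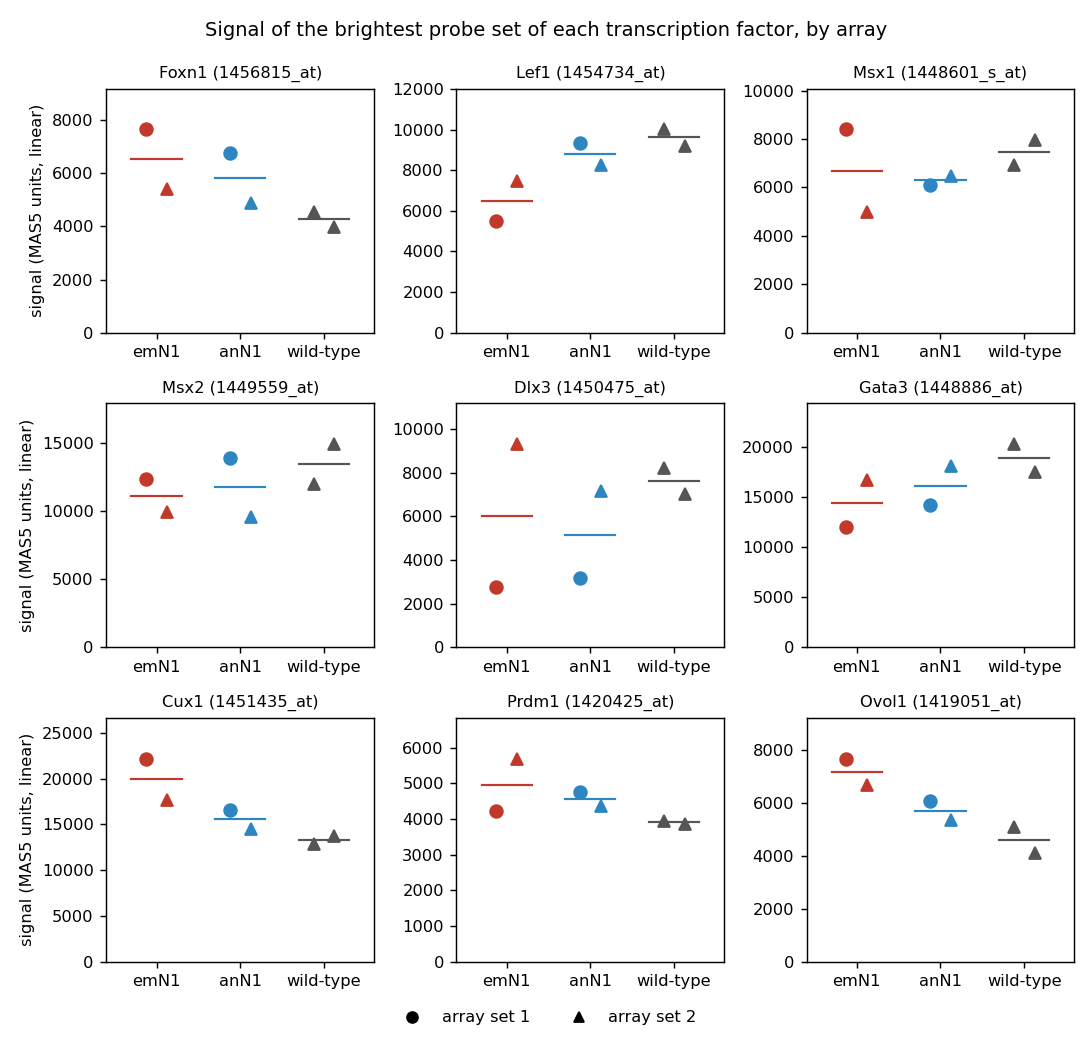
Signal of the brightest probe set of each of the 9 genes on every array (y axis, MAS5 signal on a linear scale from 0), by group (x axis); each point is 1 array, circles are the first array set, triangles the second, and bars are group means. Both emN1 points lie under every control for Lef1 and above every control for Cux1 and Ovol1, and Dlx3 separates by array set.

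Both Lef1 probe sets were lower in emN1 than in every control, short of the threshold. The brighter one gave 5495 (replicate 1) and 7490.4 (replicate 2) signal units in emN1, against 9330.3 and 8242 in anN1 and 10019 and 9226 in wild-type, and replicates are given in this order throughout. The second gave 1463 and 1372 in emN1, 2047 and 2135 in anN1, and 2029.7 and 2506 in wild-type. In both, the emN1 arrays and the 4 control arrays did not overlap. The log2 difference was -0.48 (SE 0.14; 95% interval -0.80 to -0.16; 2 against 4 arrays) for the brighter and -0.60 (SE 0.16; interval -0.97 to -0.23) for the second probe set, with limma Benjamini-Hochberg adjusted p of 0.119 and 0.0897.

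Within the array sets the Lef1 difference between emN1 and anN1 was -0.76 in the first and -0.14 in the second set for the brighter probe set, and -0.48 and -0.63 for the other. Against wild-type alone the differences were -0.52 (SE 0.18) and -0.67 (SE 0.21), and between anN1 and wild-type they were -0.07 (SE 0.18) and -0.12 (SE 0.21). The order of the fitted Lef1 levels was thus emN1, anN1, wild-type from low to high, and the step between anN1 and wild-type was smaller than its SE. With both probe sets averaged, the Lef1 difference from the controls was -0.54 and passed (limma Benjamini-Hochberg adjusted p = 0.0279). The difference of the brighter one was not the same in the 2 array sets. It was -0.29 without emN1 replicate 1 or anN1 replicate 1, fits in which the array set term leaves only second-set arrays to compare. Without emN1 replicate 2 it was -0.76, the first-set difference from anN1 given above. Over all alternatives the limma adjusted p of Lef1 lay between 0.0279 and 0.507.

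A pair of annotated start regions of Lef1 and one of Prdm1 are shown because they hold, or lack, the short motifs of factors in this pathway. Promoter windows of 250 bases before to 50 after a start were found in RefSeq (GRCm38.p6) for 7 of the 9 genes, 10 windows in all. Dlx3 and Ovol1 were not among them. The core of RBPJ, the DNA-binding partner of Notch (TGGGAA), the core of LEF1 and TCF factors (CTTTGA) and a core of MSX and DLX homeobox factors (TAATTG) were searched on both strands. Capitals mark matches in the 250 bases upstream of each start, 5′ to 3′ on the gene's own strand.
Lef1, first start, chr3:131110047-131110296, + strand: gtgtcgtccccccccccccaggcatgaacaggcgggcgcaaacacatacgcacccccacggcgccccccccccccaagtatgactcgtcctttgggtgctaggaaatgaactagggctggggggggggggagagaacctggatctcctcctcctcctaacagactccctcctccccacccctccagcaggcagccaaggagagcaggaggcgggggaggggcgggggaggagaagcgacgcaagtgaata
Lef1, internal start, chr3:131156044-131156293, + strand: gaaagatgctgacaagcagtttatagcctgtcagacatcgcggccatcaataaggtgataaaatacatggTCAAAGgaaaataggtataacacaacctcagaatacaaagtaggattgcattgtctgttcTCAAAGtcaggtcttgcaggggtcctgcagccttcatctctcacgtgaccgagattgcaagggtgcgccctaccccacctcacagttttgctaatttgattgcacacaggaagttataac
Prdm1, chr10:44458749-44458998, - strand: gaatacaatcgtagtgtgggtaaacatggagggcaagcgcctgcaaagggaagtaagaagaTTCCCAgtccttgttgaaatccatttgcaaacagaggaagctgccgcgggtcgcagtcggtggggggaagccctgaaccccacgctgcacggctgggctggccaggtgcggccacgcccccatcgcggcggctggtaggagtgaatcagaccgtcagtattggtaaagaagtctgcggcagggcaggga
The internal Lef1 start had the LEF1 and TCF core at positions -180 and -120 from the start, both on the opposite strand, and the first start had no match in its upstream part. The Prdm1 window, which also lies inside the gene span given above and not at its outer 5′ end, had the RBPJ core at position -189, on the opposite strand. Over the whole windows, the RBPJ core was in 5 of the 10, which belong to 3 of the 7 genes: Lef1, Msx1 and Prdm1. A pair of the Lef1 windows overlap and hold the same match. The matches of Lef1 and Msx1 lay after the start, between 12 and 43 bases from it. The LEF1 and TCF core was in 1 of the 10 windows, that of the internal Lef1 start, and the homeobox core in none. Among all 32851 windows of the genome annotation, 25.6% held the RBPJ core, 16.0% the LEF1 and TCF core and 8.0% the homeobox core, so that a match in a single window is common. A match describes the letters only.

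The homeobox genes Msx1 and Msx2 showed no even difference. The brighter Msx1 probe set gave 8398 and 4984 signal units in emN1, 6110.4 and 6469 in anN1, and 6924.5 and 7971 in wild-type, so that the 2 emN1 arrays were the highest and the lowest of all 6. Its log2 difference from the controls was -0.12 (SE 0.20; interval -0.59 to 0.34). The dimmer Msx1 probe set had both emN1 arrays under every control, at 762 and 1094 in emN1, 1132 and 1570.1 in anN1, and 1352 and 1396 in wild-type. Its difference was -0.46 (SE 0.17; limma Benjamini-Hochberg adjusted p = 0.236).

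Between emN1 and anN1 the brighter Msx1 probe set differed by 0.46 in the first array set and by -0.38 in the second, while the dimmer one differed by -0.56 and -0.51. The 2 Msx1 probe sets thus gave different pictures of the same gene in the first set and the same direction in the second. The brighter one is of the kind that can match transcripts of more than 1 gene, by its name.

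Msx2, whose homeobox protein is needed for normal shaft differentiation and hair cycling in mice, gave 12353 and 9926 signal units in emN1, 13925 and 9566 in anN1, and 12009 and 14937 in wild-type bulbs. The groups overlapped, and the difference from the controls was -0.23 (SE 0.17; interval -0.61 to 0.15). Against wild-type alone Msx2 differed by -0.49 (SE 0.16; limma Benjamini-Hochberg adjusted p = 0.219), and anN1 differed from wild-type by -0.43 (SE 0.16; limma adjusted p = 0.999), so that the fitted emN1 and anN1 levels, -0.06 apart (SE 0.14), did not differ beyond their spread. The emN1 value against wild-type passed without wild-type replicate 1 (-0.65; limma adjusted p = 0.0473), a fit in which the lone wild-type array is assumed to vary like the other groups. The second Msx2 probe set reached 455 and 76.8 in emN1, 336 and 149 in anN1, and 311 and 67.1 in wild-type, beside a background limit of 84.3 (the 95th percentile of undetected bacterial controls). An emN1 and a wild-type value therefore lay under background, and its difference of -0.32 had an SE of 0.59.

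Dlx3, a Wnt-responsive homeobox factor of the matrix and shaft, separated the arrays by hybridisation set and not by group. It gave 2755 and 9313 signal units in emN1, 3148 and 7173 in anN1, and 8207 and 7035 in wild-type bulbs. The first-set arrays were the lowest 2 of the 6, with a log2 difference between the sets of -1.75 in emN1 and -1.18 in anN1. With array set as a term, emN1 differed from the controls by 0.12 (SE 0.15; interval -0.22 to 0.45; limma Benjamini-Hochberg adjusted p = 0.773). Without that term the Dlx3 difference changed sign, to -0.25. The second Dlx3 probe set was also lower in the first set, with log2 values of -0.92 in emN1 and -0.52 in anN1, and differed from the controls by -0.08 (SE 0.20).

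Foxn1 did not separate the groups either. Its brighter probe set gave 7662 and 5431 signal units in emN1, 6774 and 4900.3 in anN1, and 4564 and 3979 in wild-type. In each array set the emN1 value was above the controls of that set, by 0.18 over anN1 in the first set and 0.15 in the second, while across sets the groups overlapped. The difference from the controls was 0.24 (SE 0.13; interval -0.05 to 0.53) and from wild-type alone 0.36 (SE 0.15; limma Benjamini-Hochberg adjusted p = 0.37). The second Foxn1 probe set, at 806 and 1718 in emN1, 994 and 1394 in anN1, and 1509.6 and 1099 in wild-type, differed from the controls by 0.11 (SE 0.22).

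The 2 Foxn1 probe sets moved in opposite directions between the array sets. The brighter one was higher in the first set by 0.50 in emN1 and 0.47 in anN1, and the dimmer one differed by -1.07 and -0.48. Some measures of RNA or labelling also differed between the sets. The ratio of 3′ to 5′ signal of beta-actin was 4.59 and 5.64 in the emN1 and anN1 arrays of the first set and 2.39 to 2.71 in the second, and the middle 18S ribosomal RNA control had 115746 and 111195 signal units in the first set and 46819.5 to 57872 in the second. The same ratio for Gapdh did not separate the sets, at 4.79 in the emN1 and 6.96 in the anN1 array of the first set and 4.64 to 5.45 in the second. Their part in the Dlx3 and Foxn1 values was not tested.

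**Figure D2:**
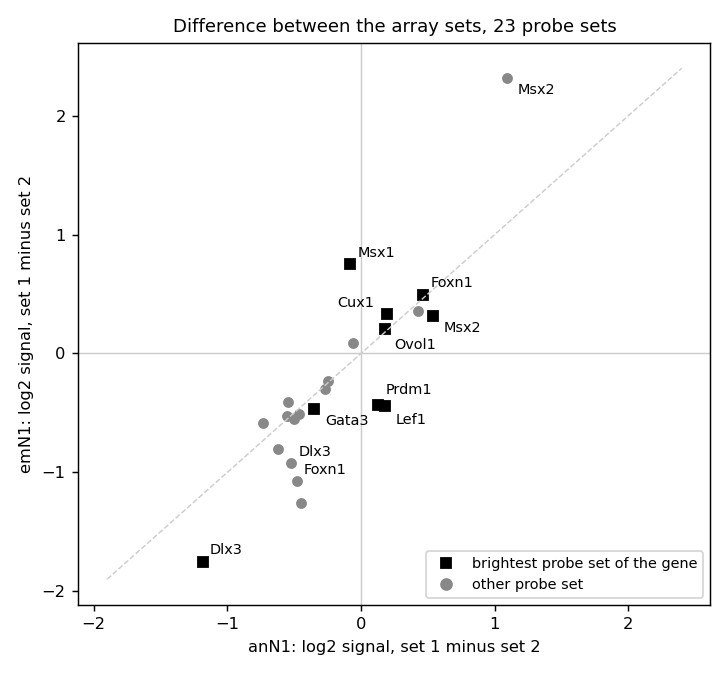
Log2 signal of the first minus the second array set in anN1 (x axis) and in emN1 (y axis) for all 23 probe sets; squares are the brightest probe set of a gene, circles the others, and the dashed line marks equal differences. Dlx3 lies at -1.18 and -1.75, Foxn1 has 1 probe set on each side of 0, and the brighter Msx1 probe set has its difference in emN1 alone (0.75 against -0.08).

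Gata3, a zinc finger factor needed for the inner root sheath, gave 12039.8 and 16664 signal units in emN1, 14172 and 18081 in anN1, and 20278 and 17484 in wild-type. Each emN1 array lay under the controls of its own set, and the groups overlapped across sets. The log2 difference from the controls was -0.19 (SE 0.10; interval -0.41 to 0.04; limma Benjamini-Hochberg adjusted p = 0.4). Between emN1 and anN1 it was -0.24 in the first and -0.12 in the second array set. The fitted order was emN1, anN1, wild-type from low to high, with anN1 and wild-type 0.03 apart (SE 0.13).

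Cux1, a homeobox factor with cut repeats, had the most probe sets of the members, and they differed in direction. The brightest gave 22172 and 17646 signal units in emN1, 16599 and 14465 in anN1, and 12847 and 13722 in wild-type, with both emN1 arrays above every control. Its log2 difference of 0.39 (SE 0.09; interval 0.18 to 0.60) had the smallest adjusted p of all members (limma Benjamini-Hochberg adjusted p = 0.063). After quantile normalization the Cux1 difference was 0.42 and passed (limma adjusted p = 0.0416), while with all Cux1 probe sets averaged it was 0.30 (SE 0.16) and did not (limma adjusted p = 0.353). That of the brightest probe set was 0.42 over anN1 in the first set and 0.29 in the second, and 0.44 (SE 0.12) over wild-type.

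A further pair of Cux1 probe sets is annotated to the same sequence record as the brightest one, and both had positive differences too. The dimmer of this pair gave 1360 and 1060.5 in emN1, 926 and 683 in anN1, and 666 and 709 in wild-type, a difference of 0.59 (SE 0.19). The brighter gave 4709 and 7088 in emN1, 3241 and 5389 in anN1, and 5906 and 4669 in wild-type, a difference of 0.47 (SE 0.13). In both array sets the emN1 value exceeded anN1, by 0.55 and 0.62 for the dimmer and by 0.54 and 0.39 for the brighter. The limma Benjamini-Hochberg adjusted p was 0.149 for the dimmer and 0.106 for the brighter.

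The pair of Cux1 probe sets annotated to another record did not share a direction. The brighter gave 4685 and 5759 in emN1, 6100.1 and 7363 in anN1, and 8241 and 6806 in wild-type, with both emN1 arrays under every control and a log2 difference of -0.37 (SE 0.12; interval -0.64 to -0.10; limma Benjamini-Hochberg adjusted p = 0.146). Between emN1 and anN1 it was -0.38 in the first and -0.35 in the second array set. The dimmer of the pair, at 189.7 and 285 in emN1, 184 and 267 in anN1, and 268 and 282 in wild-type, overlapped between groups and differed by 0.06 (SE 0.31). The unadjusted intervals of the brighter probe set and of the 3 above lay on opposite sides of 0, and the difference between them was not tested. The part of the gene that each probe set matches was not analysed here. The other 4 Cux1 probe sets differed from the controls by 0.08 to 0.73. By their names, those at 0.15 and 0.73 can match transcripts of more than 1 gene. A pair of these 4 was lowest in wild-type replicate 2, at 1481 and 3087, against 5962 and 12612 in wild-type replicate 1, and had an SE of 0.49 and 0.46.

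**Figure D3:**
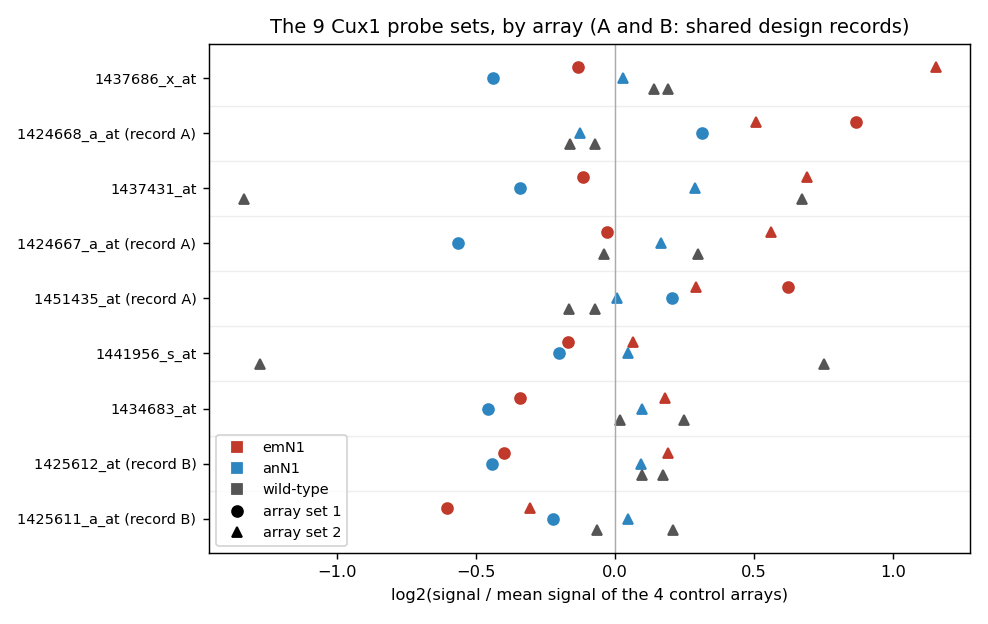
Log2 of signal over the mean signal of the 4 control arrays (x axis) for the 9 Cux1 probe sets (rows, ordered by the difference of emN1 from controls); points are arrays, coloured by group, circles for the first array set and triangles for the second, and A and B mark probe sets that share an annotated sequence record. Both emN1 points lie right of all controls for the brightest and the dimmest probe set of record A and left of all controls for the brighter one of record B.

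Ovol1, a repressor that restrains progenitor growth in skin and hair, gave 7677 and 6673 signal units in emN1, 6077 and 5350.4 in anN1, and 5077 and 4126 in wild-type. Both emN1 arrays lay above every control, and the anN1 arrays above both wild-type arrays. The log2 difference from the controls was 0.41 (SE 0.14; interval 0.10 to 0.73; limma Benjamini-Hochberg adjusted p = 0.164). It was 0.34 and 0.32 over anN1 in the 2 array sets, and 0.55 (SE 0.16) over wild-type alone. The second Ovol1 probe set overlapped between groups, at 1784 and 2372 in emN1, 1801 and 2635 in anN1, and 2098 and 1539 in wild-type, with a difference of 0.12 (SE 0.22).

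Prdm1, also called Blimp1, gave 4215 and 5688 signal units in emN1, 4758 and 4349.99 in anN1, and 3946 and 3861 in wild-type bulbs. The emN1 arrays overlapped the controls, with a difference of 0.22 (SE 0.16; interval -0.15 to 0.60; limma Benjamini-Hochberg adjusted p = 0.564). Over anN1 its sign was not the same in both array sets: -0.17 in the first, 0.39 in the second. Without emN1 replicate 2 the Prdm1 difference from the controls was -0.17, which is the first-set difference again, as only that pair is then compared.

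**Figure D4:**
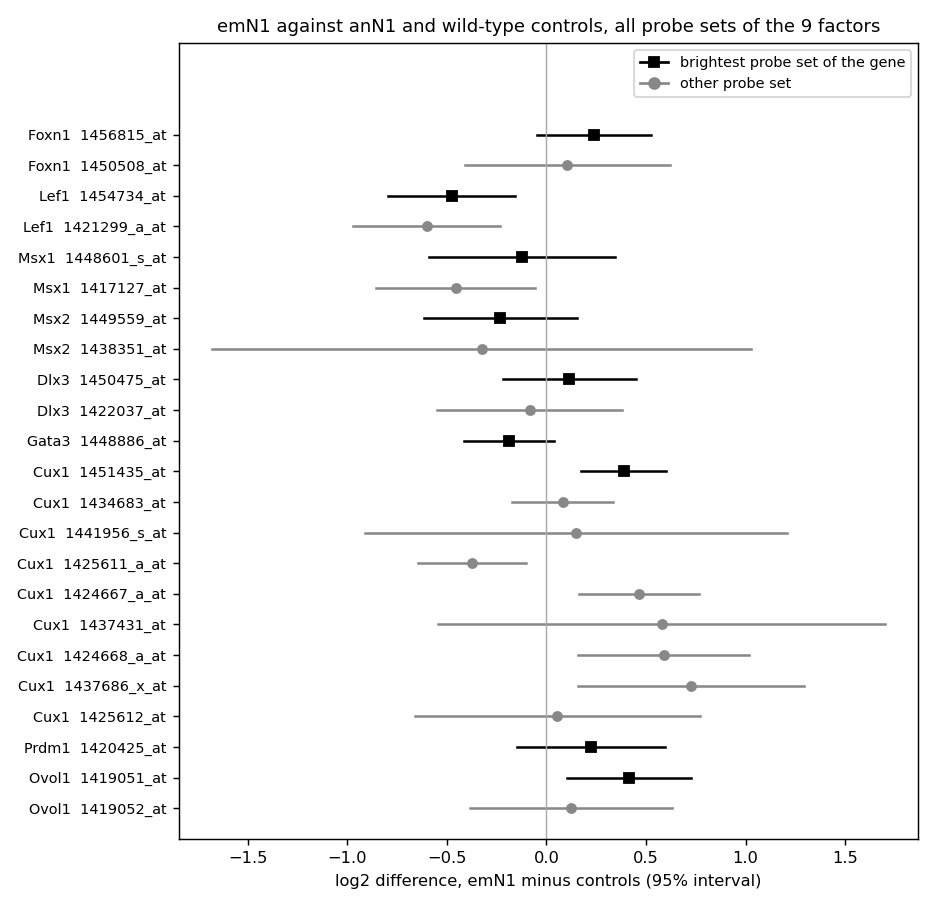
Log2 difference of emN1 minus controls (x axis) with its unadjusted 95% interval from the limma fit for all 23 probe sets (rows); black squares are the brightest probe set of each gene and grey circles the others. The intervals of both Lef1 probe sets lie under 0, those of Cux1 lie on both sides, and the widest belongs to the dim Msx2 probe set (-1.68 to 1.03).

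Over the 9 genes, both emN1 arrays lay above all 4 controls for 2 (Cux1 and Ovol1), against 12.5% of all genes tested, and below all 4 for 1 (Lef1), against 10.4%. Over the 23 probe sets the counts were 3 above (9.99% of all probe sets tested) and 4 below (9.33%). Cux1 had probe sets in both counts and both Lef1 probe sets were below, so these counts repeat genes. Against anN1 alone, 0 of the 9 genes were called, against 3.01% of all genes, and 2 were at an unadjusted p under 0.05, against 17.2% of all genes, with differences from -0.45 (Lef1) to 0.35 (Cux1). Against wild-type alone 0 of 9 were called, against 3.23%, and 5 were at an unadjusted p under 0.05, against 17.3%, with differences from -0.52 (Lef1) to 0.55 (Ovol1). The 3 comparisons share the emN1 arrays. Between anN1 and wild-type 0 of 9 were called, against 0.127% of all genes, and Msx2 alone had an unadjusted p under 0.05, against 4.76% of all genes.

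Among paralogs of the 9 genes the count called was 0, and 1 under some alternatives. Of 24 listed, 18 had a probe set that was tested. By limma with Benjamini-Hochberg adjustment 0 were higher and 0 lower in emN1 than in the controls, against 3.58% and 1.83% of all genes tested. The median log2 difference was -0.03, and 3 were at an unadjusted p under 0.05, against 20.7% of all genes. The smallest p belonged to Dlx4, a homeobox relative of Dlx3, at -0.57 (SE 0.13; limma adjusted p = 0.0508), with 5302 and 3744 signal units in emN1, 7615 and 6251 in anN1, and 5002 and 5828 in wild-type, so that the groups overlapped. Dlx4 passed after quantile normalization (-0.58; limma adjusted p = 0.0422) and with signals raised to the background limit (-0.57; 0.0437), and 1 paralog passed with probe sets averaged, where Dlx4 was at -0.39 (0.0967). Over its alternatives the adjusted p of Dlx4 lay between 0.0422 and 0.558. Prdm8, a relative of Prdm1, was at -0.95 (SE 0.24; limma adjusted p = 0.072). Its signals were 489 and 417 in emN1, 1126 and 615 in anN1, and 802 and 815 in wild-type, lower in both emN1 arrays than in every control.

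Other transcription factors of the follicle epithelium did pass the test. Of 41 listed, 35 were tested: 5 rose in emN1 (3.58% of all genes tested), 1 fell (1.83%) and 29 did not pass. Hr, a co-repressor needed for the follicle to cycle, rose by 0.96 (SE 0.13) with array set as a term, with 5139 and 14349.7 signal units in emN1, 2161 and 8436 in anN1, and 8386 and 8231 in wild-type. Its first-set arrays were the lowest of each deletion group, and without the set term the Hr difference was 0.53 (SE 0.61; limma adjusted p = 0.872), or 0.53 (SE 0.46; 0.782) with the replicate block, and did not pass. Foxc1, a forkhead factor, rose by 0.92 (SE 0.12), to 7934 and 7821 in emN1, against 4088 and 4579 in anN1 and 4070.2 and 3896 in wild-type. Lhx2, a LIM homeobox factor of follicle progenitors, rose by 0.77 (SE 0.14). Grhl3, a factor of epidermal barrier formation, fell by 1.05 (SE 0.17), to 1196 and 1425 in emN1, against 2039 and 3237 in anN1 and 3848 and 3128 in wild-type bulbs. The limma Benjamini-Hochberg adjusted p-values of these 4 genes were between 0.00585 and 0.0236. The other 2 that rose, Klf4 (0.39, SE 0.08) and Vdr (0.71, SE 0.14), are named after their values were seen. Hoxc13, a homeobox factor of the shaft named outside the rule, differed by 0.07 (SE 0.15).

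Of 18 listed genes of the Wnt, BMP and hedgehog signals of the matrix, 17 were tested. Of these, 2 rose, against 3.58% of all genes tested, 0 fell, against 1.83%, and 15 did not pass. Bmp4, a BMP ligand of the dermal papilla and matrix, rose by 0.89 (SE 0.15; limma Benjamini-Hochberg adjusted p = 0.0168), with 16868 and 10515 signal units in emN1, 7502 and 7449 in anN1, and 5698 and 6364 in wild-type. Shh, the hedgehog ligand of the matrix, rose by 0.41 (SE 0.09; limma adjusted p = 0.0446), a call lost without each of anN1 replicate 2, wild-type replicate 1 and wild-type replicate 2, among others.

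Structural genes of the same layers did pass. Of 15 tested genes of the shaft, 5 rose against the pooled controls, beside 3.58% of all genes tested, and 1 fell, beside 1.83%. The other 9 did not pass, and the median log2 difference was 1.28. The cortex keratin gene Krt86 rose by 6.26 (SE 0.77), with 14262 and 20088 signal units in emN1, 525 and 327 in anN1, and 103 and 32.7 in wild-type. Krt34 rose by 5.87 (SE 0.87), Krt33b by 4.95 (SE 0.89) and Krt81 by 4.59 (SE 0.49). The 1 that fell, Krt75 (-0.80, SE 0.12), a keratin of the companion layer and medulla, and the early shaft keratin Krt35, at -0.53 (SE 0.16; limma Benjamini-Hochberg adjusted p = 0.131), are named outside the rule. The 2 kinds of control differed from each other over the 15 shaft genes. Between anN1 and wild-type 4 were called higher and 0 lower, against 0.127% of all genes called, with a median of 1.59. Against wild-type alone emN1 had 10 higher and 0 lower, against 3.23% of all genes called, with a median of 2.36. Against anN1 alone emN1 had 7 higher and 1 lower, against 3.01%, with a median of 0.95. Of 11 tested inner root sheath genes, 3 rose against the pooled controls, beside 3.58% of all genes tested, and 0 fell, beside 1.83%. The other 8 did not pass, and the median was 0.21. Krt26 rose by 2.97 (SE 0.32), Padi1 by 1.24 (SE 0.22) and Krt72 by 1.08 (SE 0.12). Some control signals of Krt86, Krt34 and Krt33b were under the background limit, so the sizes of these differences are uncertain, and hair keratin genes are alike in sequence, so that signal shared between them cannot be told apart.

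**Figure D5:**
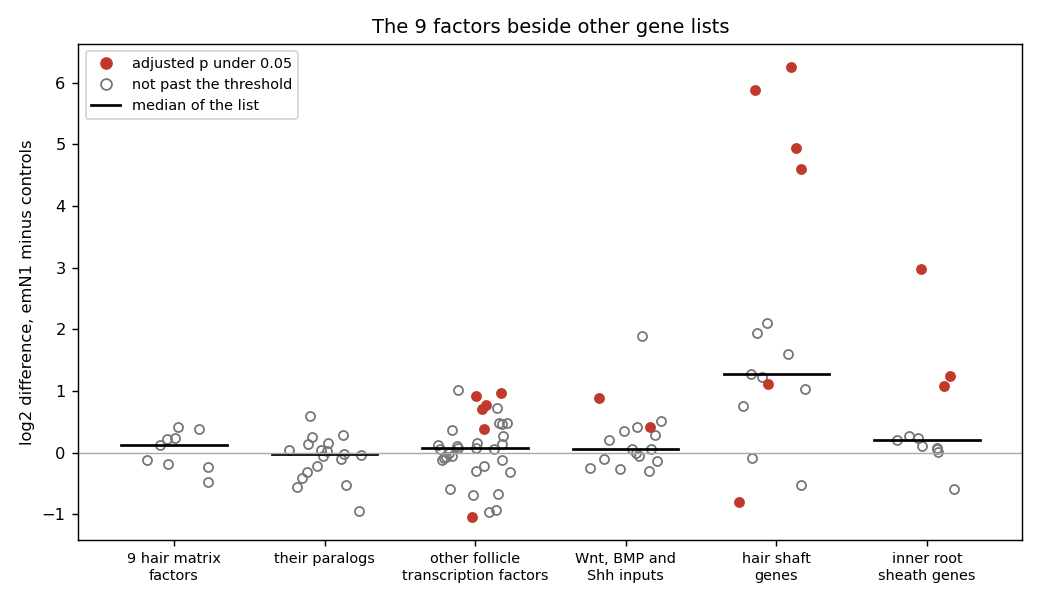
Log2 difference of emN1 minus controls (y axis) for each tested gene of 6 lists (x axis); filled points passed limma at an adjusted p under 0.05, open points did not, and bars are list medians. The 9 matrix factors and their paralogs have no filled point, while the shaft genes reach 6.26.

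The calls in these lists rest on few arrays. Of the 14 genes named from them by rule as past the threshold, Notch1 included, 14 lost the call without emN1 replicate 2, 13 without emN1 replicate 1 and 12 without anN1 replicate 1, and 14 lost it in limma without the intensity trend. Without the array set term, and likewise with the replicate block in its place, 8 lost it: Grhl3, Hr, Lhx2, Bmp4, Shh, Krt33b, Padi1 and Notch1. All 14 kept their sign in these fits. With array set as a term, the fits without emN1 replicate 1 or anN1 replicate 1 compare only second-set arrays. That without emN1 replicate 2 compares only the first-set pair, so these fits are not independent checks. Notch1 itself, the deleted gene, gave 6498 and 6292 signal units in emN1, 15077 and 12527 in anN1, and 23750.2 and 34070.4 in wild-type, a fall of 1.55 on the log2 scale (SE 0.35; limma Benjamini-Hochberg adjusted p = 0.0491). No label gives the deleted part of the gene, so this value does not check the labels.

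Several of the 9 factors are also made by other cells of skin, so marker levels are given beside the values above. Summed marker signal of differentiating epidermis, where Gata3, Prdm1, Ovol1 and Dlx3 are also known, was 168191 and 146973 in emN1, 93549 and 91564 in anN1, and 77497 and 78344 in wild-type (10 of 10 markers on the array, 7 above background on all arrays, Flg under background on all). Dermal papilla markers, a compartment that also makes Lef1 and Prdm1, summed to 15604 and 13578 in emN1, 13619 and 15849.7 in anN1, and 13114 and 13269 in wild-type (11 of 11 on the array, 8 above background). Of the 8 tested, 2 were higher and 2 lower in emN1 than in the controls by limma, against 3.58% and 1.83% of all genes tested. Lymphoid markers, cells that also make Gata3, Lef1 and Prdm1, summed to 4057 and 4422 in emN1, 2296 and 2155 in anN1, and 2058 and 1966 in wild-type (9 of 12 on the array). Only 2 of them were above background on all arrays, and their defining genes Cd3d, Cd3g and Cd4 were under background on every array. The lymphoid list also shares Thy1 with the fibroblast list, so its sum is not a level of lymphoid cells alone.

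Fibroblast markers (8 of 9 on the array, all 8 above background) ranged from 107825 to 130398 in emN1, from 67519 to 72848 in anN1 and from 65893 to 85458 in wild-type. Melanocyte markers (9 of 9, all above background) ranged from 98125 to 116039 in emN1, from 266490 to 313188 in anN1 and from 215728 to 234082 in wild-type. Macrophage and Langerhans cell markers (9 of 10 on the array, Cd207 under background on all) ranged from 6619.6 to 7449 in emN1, from 1547 to 1836 in anN1 and from 1479 to 1618 in wild-type. Sebocyte markers (6 of 8, Pparg under background on all) ranged from 26324 to 26332 in emN1, from 19152 to 19508 in anN1 and from 18567 to 18907 in wild-type. Markers of endothelium and pericytes (9 of 9, Pecam1 under background on all) ranged from 40258 to 41546 in emN1, from 19747 to 23377 in anN1 and from 16400.1 to 16535 in wild-type. Skeletal muscle markers stayed near background, with 1 of 7 above it on all arrays and Myh4 and Tnnt3 under it on all. They summed to 704 and 873 in emN1, 572 and 801.5 in anN1, and 599.5 and 760.3 in wild-type bulbs. By limma against the pooled controls, 7 of 9 tested melanocyte markers were lower, against 1.83% of all genes tested. Higher were 5 of 8 fibroblast, 3 of 8 macrophage and Langerhans cell and 3 of 6 endothelium and pericyte markers, against 3.58%. Also higher were 2 of 5 sebocyte, 2 of 7 epidermis and 1 of 3 lymphoid markers. The 1 tested muscle marker was not called. The part of these cell types in the values of the 9 genes was not tested, and in whole bulbs fewer cells of a type and less RNA per cell cannot be told apart.

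For each of the 9 genes, the 2 other genes whose log2 signal was most alike over the 6 arrays were found by Pearson's r among 22742 probe sets. They were Smtnl2 and Zmym4 for Lef1, Lrr1 and Nelfb for Msx1, Exoc2 and Kdf1 for Msx2, and Hinfp and Ankrd17 for Dlx3. They were St3gal3 and Zscan21 for Foxn1, Pias4 and Prpf31 for Gata3, Rabac1 and Fn1 for Cux1, Crybg3 and Cramp1l for Prdm1, and Plekhg2 and Dnase1l2 for Ovol1. The values of r were between 0.985 and 0.999 over 6 arrays, which share their array set and scaling. From 20 probe sets (Prdm1) to 517 (Dlx3) had an r above 0.95 with a member, so that the likeness is a description of these arrays.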

How the data were processed

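The files held, for each of 6 arrays, 1 linear-scale intensity for every probe set, as deposited by the authors. The submitters' processing notes list MAS5 without a version or settings. The deposited intensities had a trimmed mean of 1500 on every array and were not rescaled. Groups and replicates came from sample titles, array sets from the design text, and 0 columns of values were left unused.

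Genes were named from the platform annotation (34945 probe sets with 1 symbol, 932 with several, 9224 with none, controls counted with the last), using only those with 1. The 64 control probe sets were left out. Signals became log2(signal + 17.8), 17.8 being the 10th percentile over the whole table, so differences of dim genes are understated, and the brighter 60% of probe sets were tested (27022; 12611 genes). The tested probe set with the highest mean log2 signal stood for its gene. Differences were tested with limma 3.58.1 (R 4.3.3; eBayes with an intensity trend), two-sided, Benjamini-Hochberg adjusted over all kept probe sets, with array set as a term. One fit set emN1 against 4 controls (3 residual degrees of freedom) and the other had 3 groups (2). Background was the 95th percentile, 84.3, of 36 values of 6 bacterial control probe sets (dap) not detected on any array; with all 20 undetected bacterial probe sets it was 112. Intervals are 95% from the limma fit. Figures used matplotlib 3.10.9.

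In the design text, replicate 1 of emN1 and of anN1 make up set 1 and replicate 2 belong to set 2, so these numbers pair the samples; their replicate 1 minus 2 differences correlated with r = 0.38 across probe sets, and those with wild-type, whose numbers mark no set, with -0.19 and -0.02.

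Named were all member probe sets, Notch1, from each list the 4 called genes, or fewer, that changed most (otherwise the 2 with the smallest p), and the 2 genes most alike each member. The members, lists and tests were chosen with earlier results of these data known. On simulated data for emN1 minus controls (27022 probe sets, 200 changed, 10 draws) the fit recovered 22.2%, 56.0% and 86.7% of log2 changes of 1, 2 and 4, with 2.66% false among the calls. Alternatives are given in the closing section.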

Additional observations from a re-analysis of the deposited data

Results flagged for a closer look

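In the 4 control arrays, anN1 replicate 1 stood apart for 2 of 23 probe sets, both of Cux1. For the dimmest of the 3 that share a sequence record its gap to the nearest control was 0.836 of the whole range (926 against 666 to 709 in the others), and for the dimmest of all 9 it was 0.847 (184 against 267 to 282). Chance flags about 1 in 20 groups of exchangeable arrays, but anN1 replicate 1 is the only control of the first array set, so these 4 are not exchangeable. The emN1 arrays differed between the sets in the same direction: by 0.35 on the log2 scale for the first of these probe sets (0.43 in anN1) and by -0.55 for the second (-0.50 in anN1), where emN1 had 189.7 in the first and 285 in the second set.

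The difference between emN1 and anN1 had opposite signs in the 2 array sets for the brightest probe sets of 4 genes. The first-set minus second-set value was 0.83 for Msx1, -0.23 for Msx2, -0.57 for Dlx3 and -0.56 for Prdm1 on the log2 scale. Each set holds 1 pair of arrays, and these differences were not tested.

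Control probe sets for the cre gene of bacteriophage P1, which no comparison above uses, were higher in every emN1 and anN1 array than in both wild-type arrays. AFFX-CreX-3_at had 434 and 409 signal units in emN1, 395 and 515 in anN1, and 62.4 and 79 in wild-type. AFFX-r2-P1-cre-3_at had 428 and 349 in emN1, 353 and 612 in anN1, and 29.2 and 4.29 in wild-type. AFFX-r2-P1-cre-5_at had at least 93.7 in emN1 and anN1 and at most 33.4 in wild-type. AFFX-CreX-5_at had 71.1 and 100.8 in emN1, 11.4 and 27.4 in anN1, and 3.12 and 4.25 in wild-type, mostly under background.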

How the results depend on the processing

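Of 124 alternative values for the 9 genes in emN1 minus controls, 117 kept direction and side of the threshold, 2 passed it newly and 5 changed sign. After quantile normalization 1 of the 9 genes was called (Cux1), with 1083 probe sets called in all, against 1020 in the main fit. With a gene's probe sets averaged 1 was called (Lef1), with 830 genes called in all, against 682 by their brightest probe sets. Calls thus rose over all genes too. The Msx2 difference from wild-type without wild-type replicate 1, given above, comes from a fit with a lone wild-type array. Over these alternatives Lef1 ranged from -0.76 to -0.29, Cux1 from 0.30 to 0.46, Ovol1 from 0.27 to 0.485, Foxn1 from 0.17 to 0.38, Gata3 from -0.29 to -0.15 and Msx2 from -0.32 to -0.14. Causes were not tested.

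Both the replicate block in place of array set and a fit with no set term gave a Dlx3 difference of -0.25 from the controls, -0.58 from wild-type and -0.67 between anN1 and wild-type. Probe sets called under the replicate block were 288, 73 and 262 for emN1 against controls, anN1 and wild-type, and with no set term 286, 42 and 215. The numbers in emN1 and anN1 are the array sets, while those of wild-type mark none. The emN1 and anN1 arrays alone with the replicate block gave 1261 for emN1 minus anN1. No member call changed under these blocks. Of the 14 named list genes 8 lost their call under each of the first 2 fits.

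Averaged probe sets gave -0.25 for Msx1 and -0.040 for Dlx3 in emN1 minus anN1. Without the intensity trend 0 probe sets were called in any of the 4 comparisons (4044, 3109, 3003 and 1118 at an unadjusted p under 0.05).

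With 1 array left out, probe sets called ranged from 1 (emN1 replicate 2 left out; 160 and 190 when emN1 or anN1 replicate 1 was) to 1092 for emN1 minus controls (1020 with all arrays), from 0 (without each emN1 or anN1 array in turn) to 1269 for emN1 minus anN1 (545), from 0 to 1375 for emN1 minus wild-type (584) and from 0 to 173 for anN1 minus wild-type (20). The fits with 1 array left out also changed signs. With array set as a term, leaving out replicate 1 of emN1 or of anN1 leaves only second-set arrays to compare emN1 with controls. Leaving out emN1 replicate 2 (or, for emN1 minus anN1, anN1 replicate 2) leaves only the first-set pair. The signs that changed there for emN1 minus controls and emN1 minus anN1 thus repeat the differences within the array sets and are not separate evidence. For emN1 minus controls, Msx1 ranged from -0.51 to 0.46, Dlx3 from -0.19 to 0.32 and Prdm1 from -0.17 to 0.49, with the opposite sign without emN1 replicate 2. For emN1 minus anN1, Msx1 ranged from -0.38 to 0.46 and Msx2 from -0.17 to 0.053 (turned without either replicate 1), Dlx3 from -0.19 to 0.38 and Prdm1 from -0.17 to 0.39 (turned without either replicate 2). For emN1 minus wild-type, Msx1 ranged from -0.57 to 0.26, Dlx3 from -0.27 to 0.29 and Prdm1 from -0.018 to 0.54 (turned without emN1 replicate 2). For anN1 minus wild-type, Lef1 ranged from -0.22 to 0.40, Dlx3 from -0.083 to 0.48, Gata3 from -0.14 to 0.078 and Cux1 from -0.0073 to 0.14. The lone array of a group is assumed there to vary like the other groups.

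The same alternatives for list genes were chosen after seeing the data. Signals near background limit the dim Msx2 probe set and the shaft keratins in controls.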
